A study of Drosophila melanogaster with 6 samples.

Results

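The genes described here are 8 germ cell and piRNA pathway genes of *Drosophila melanogaster*, vas, nos, bam, piwi, aub, AGO3, krimp and zuc. They were chosen by name, as the rows carrying these symbols in each deposited table, and all 8 were found among the 16508 genes listed. RNA was sequenced from whole larvae of the last instar in 3 libraries labelled Wild-type, from the Oregon strain, and 3 labelled CrolKO, with 40 larvae in each. The study asked how loss of Crol, a zinc finger DNA-binding protein found with Polycomb proteins, changes transcription. The knockout was made by CRISPR/Cas9 and homologous recombination in embryos of a y w stock that carries Cas9 under the Act5C promoter and a DNAlig4 allele. The flies obtained were crossed to y w flies and recognised by a DsRed marker at the edited locus. They were then kept over a CyO balancer that carries a w+ transgene. By the study's account most homozygotes survive almost to adulthood and their larvae keep some maternally supplied Crol protein. The sources used here give neither the sex of the larvae nor an Oregon background for the mutant, so genotype and strain cannot be told apart.

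Germ cells are a small part of a larva and lie in the paired gonads, where they divide as primordial germ cells or stem cells and, in the testis, already enter the spermatocyte stage. There the piRNA pathway silences transposons: small RNAs of the Piwi family of Argonaute proteins guide Piwi to nascent transcripts in the nucleus, and guide Aub and AGO3 to transposon RNA in the nuage, a perinuclear granule in which cleavage by one partner creates the piRNA of the other. Vas organises the nuage, Krimp binds AGO3 and Aub there, and Zuc is the nuclease at mitochondria that cuts precursors into piRNAs. In RNA from whole larvae, fewer germ cells and less RNA per germ cell cannot be told apart.

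Of the 8 genes, aub alone passed the test for a difference between the labelled groups, at 2.0-fold higher in the CrolKO libraries. The other Argonaute genes, piwi and AGO3, had fitted values below 0, and vas, the germ cell marker, had a fitted value near theirs, but none of these passed. Every member was a low-level transcript, with between 11 and 133 counts in any library.

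The libraries held between 23637969 and 49236787 expected counts. The 20 most abundant genes took 20.7% to 23.5% of the counts in the Wild-type libraries and 28.9% to 30.8% in the CrolKO libraries. Longer transcripts had lower log2 fold changes across all genes (Spearman rho of -0.37 over 12434 genes, which are not independent replicates). Each deposited table is named for the genotype opposite to its sample label, and all directions below follow the labels. Expression of crol, the targeted gene, stood at 65.7 ± 6.66 CPM, counts scaled to library size, under the label Wild-type and at 39.6 ± 2.93 CPM under CrolKO (SD, n = 3 each), with an edgeR adjusted p of 0.0043. Its log2 fold change was -0.73, short of the fold threshold used for calls, so that crol was not called. The eye pigment transporter gene w gave 0.667 ± 0.134 CPM under Wild-type and 16.6 ± 1.33 CPM under CrolKO. The injected stock lacks w function, while the balancer of the knockout line carries a w+ transgene. Whether the larvae sequenced carried that balancer is not given, so that w alone does not settle the labels. The balancer bears only on the value under CrolKO. The low value under the label Wild-type, 20 to 31 counts a library, has no account in the sources used here, which give Oregon as the wild type. If the labels were exchanged, every direction given here would turn.

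**Figure D1:**
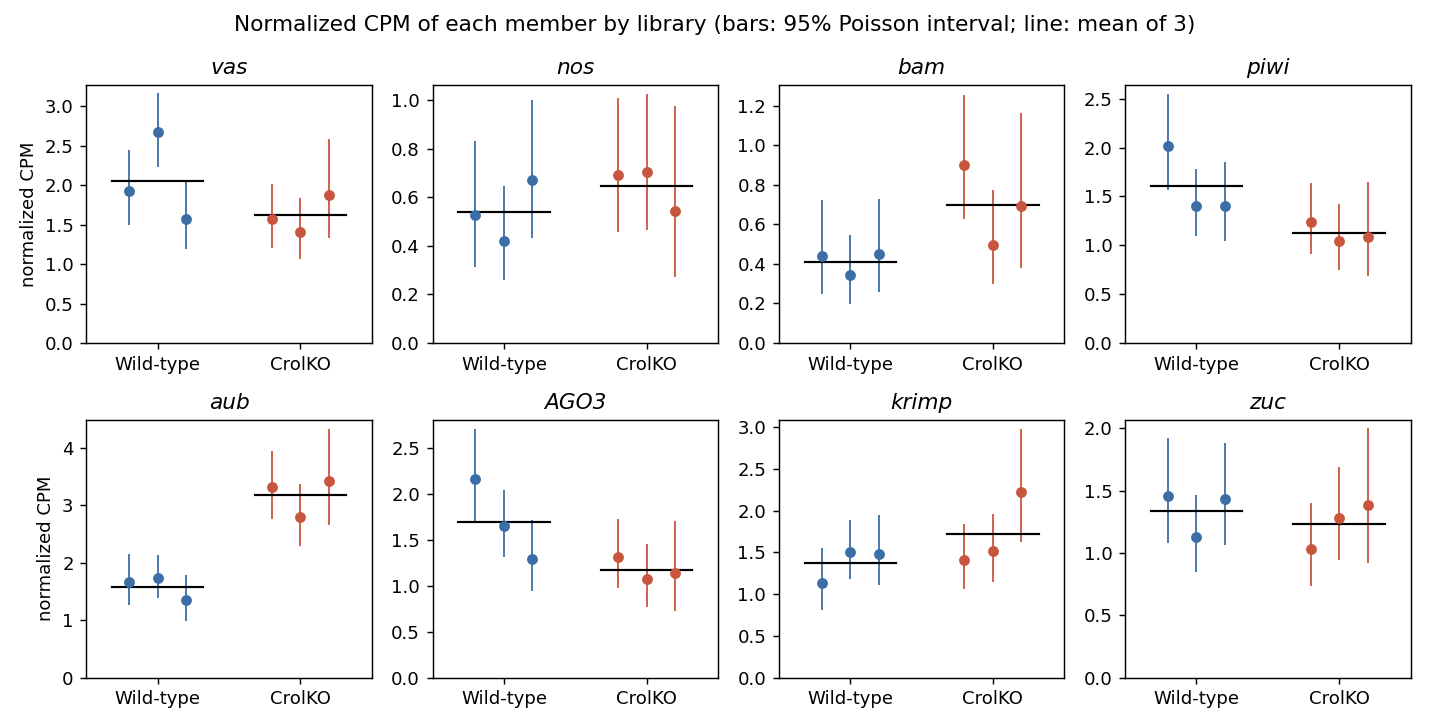
Normalized CPM (vertical axis, linear, from 0) of each of the 8 genes in the 3 libraries labelled Wild-type (blue) and the 3 labelled CrolKO (red), points in the order of replicates 1 to 3. Bars are 95% Poisson intervals of the count and the line is the group mean. The aub points lie at 1.35 to 1.73 CPM under Wild-type and 2.79 to 3.42 CPM under CrolKO, and the point of Wild-type replicate 2 stands above the others for vas.

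Among the genes that mark germ cells, vas, which encodes a DEAD-box RNA helicase, gave 1.93, 2.67 and 1.57 CPM in the Wild-type libraries and 1.57, 1.41 and 1.88 CPM in the CrolKO libraries. These are TMM-normalized CPM of 66, 133 and 56 counts against 61, 54 and 38. The groups overlapped, and the highest value was that of Wild-type replicate 2, whose 95% Poisson interval of 2.24 to 3.17 CPM lay above that of Wild-type replicate 3, at 1.19 to 2.04 CPM. Such intervals cover counting error only. The log2 fold change of vas, CrolKO over Wild-type, was -0.36 ± 0.27 (SE, n = 3 each) with an adjusted p of 0.32 in edgeR's quasi-likelihood test, and it was -0.09 without Wild-type replicate 2.

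nos encodes Nanos, the translational repressor that maintains germline stem cells. It gave 0.526, 0.422 and 0.673 CPM under Wild-type and 0.694, 0.705 and 0.545 CPM under CrolKO, with 11 to 27 counts a library. Both groups covered much the same range, and the log2 fold change was 0.29 ± 0.31 (edgeR adjusted p = 0.51). The interval of this difference ran from -0.44 to 1.01, so that a doubling was not excluded at this depth.

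bam encodes the factor that moves germ cells from the stem cell state to differentiation. Its values were 0.438, 0.342 and 0.449 CPM under Wild-type and 0.900, 0.496 and 0.694 CPM under CrolKO, from 14 to 35 counts a library. The CrolKO libraries were the higher 3, though replicate 2 stood only just above the Wild-type range and its Poisson interval, 0.299 to 0.774 CPM, took in all the Wild-type values. The fitted difference was 0.77 ± 0.35 on the log2 scale, with a 95% interval from -0.03 to 1.57, and did not pass (edgeR adjusted p = 0.12).

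aub encodes Aubergine, the cytoplasmic Argonaute that binds mainly antisense piRNAs and slices transposon RNA. It gave 1.66, 1.73 and 1.35 CPM in the Wild-type libraries and 3.32, 2.79 and 3.42 CPM in the CrolKO libraries. The groups were apart, and no Wild-type interval met a CrolKO interval: the Poisson intervals reached at most 2.16 CPM under Wild-type and began at 2.29 CPM or above under CrolKO. On the log2 scale aub rose by 1.0 ± 0.20 (95% interval 0.53 to 1.47, edgeR adjusted p = 0.0094).

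The call of aub rested on a fold change at the threshold itself, an absolute log2 fold change above 1 with an adjusted p under 0.05. Leaving out Wild-type replicate 3 gave 0.96, leaving out CrolKO replicate 1 gave 0.97 and leaving out CrolKO replicate 3 gave 0.95, all with adjusted p under 0.05 but under the fold threshold. On TPM, RSEM's transcript abundance, which is per length, aub was at 0.660, 0.830 and 0.460 under Wild-type and 0.950, 0.610 and 0.860 under CrolKO. There the groups overlapped, and limma on log2(TPM + 0.1) gave a log2 fold change of 0.28 (adjusted p = 0.44). On that scale the median of all genes tested stood at -0.67, and aub was 0.96 above it.

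piwi encodes the nuclear Argonaute that directs heterochromatin to transposons, in germ cells and in the somatic cells of the gonad. It gave 2.01, 1.41 and 1.40 CPM under Wild-type and 1.23, 1.04 and 1.09 CPM under CrolKO. The CrolKO libraries were the lower 3, by a margin smaller than the counting intervals of single libraries. Its log2 fold change was -0.51 ± 0.25 (edgeR adjusted p = 0.15).

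AGO3, the partner of Aub that binds mainly sense piRNAs, followed nearly the same values as piwi. It gave 2.16, 1.65 and 1.29 CPM under Wild-type and 1.31, 1.07 and 1.14 CPM under CrolKO. Wild-type replicate 3 fell just under CrolKO replicate 1, so that the groups overlapped by these libraries. The log2 fold change was -0.53 ± 0.27 (edgeR adjusted p = 0.16).

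krimp encodes a Tudor domain protein of the nuage. It gave 1.14, 1.51 and 1.49 CPM under Wild-type and 1.41, 1.51 and 2.23 CPM under CrolKO, where CrolKO replicate 3 lay above the Wild-type range, replicate 2 only just above it and replicate 1 within it. The log2 fold change was 0.30 ± 0.27 (edgeR adjusted p = 0.41). zuc gave 1.46, 1.13 and 1.43 CPM under Wild-type and 1.03, 1.28 and 1.39 CPM under CrolKO. It had the smallest fitted difference of the 8 genes, at -0.12 ± 0.25 (edgeR adjusted p = 0.72).

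All 8 members passed the filter of at least 10 counts in at least 3 libraries. Of the 8, 1 was called higher in the CrolKO libraries and 0 were called lower, beside 6.0% of 12434 genes called higher and 7.55% called lower. At an unadjusted p under 0.05 the lower count was also 0, as it was by DESeq2. The CPM of the groups did not overlap for 3 members, bam and aub higher and piwi lower, beside 50.2% of all genes tested. The members' median log2 fold change was 0.08, beside -0.05 over all genes tested. Their summed level was 11.3, 10.9 and 9.65 CPM in the Wild-type libraries and 11.5, 10.3 and 12.4 CPM in the CrolKO libraries, so that the sums overlapped.

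**Figure D2:**
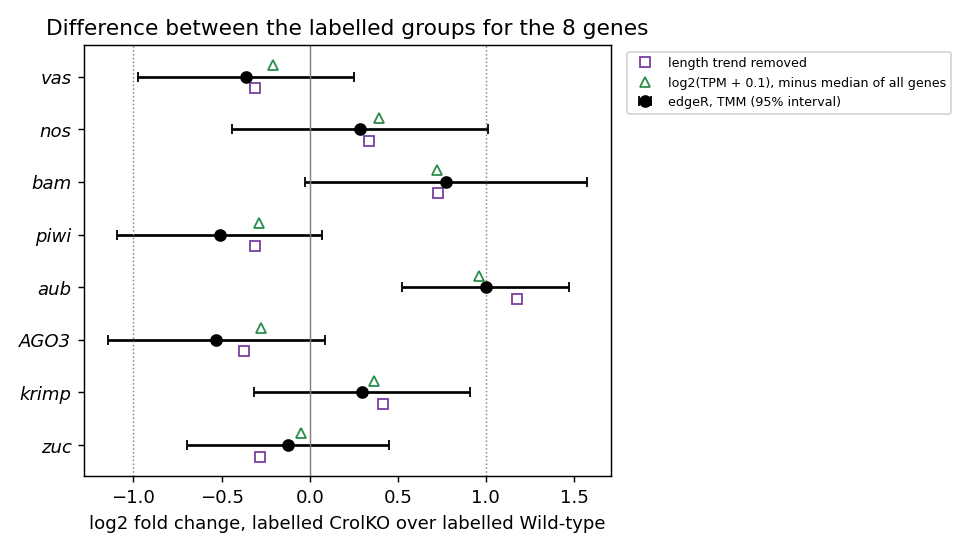
Log2 fold change of each gene, CrolKO over Wild-type as labelled (horizontal axis), from edgeR with its 95% interval (black), after removal of each library's trend over transcript length (purple squares) and from log2(TPM + 0.1) less the median of all genes (green triangles). Dotted lines mark the fold threshold of 1 on the log2 scale. Only the interval of aub lies wholly on one side of 0, from 0.53 to 1.47.

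Per length, as TPM, the order of the members differed between the groups. In the Wild-type libraries zuc was the highest at 1.37 ± 0.116 TPM, followed by vas at 1.08 ± 0.476, AGO3 at 0.703 ± 0.231, aub at 0.650 ± 0.185, krimp at 0.620 ± 0.159 and piwi at 0.613 ± 0.152 TPM (SD, n = 3). The lowest were nos at 0.263 ± 0.0153 TPM and bam at 0.247 ± 0.0153 TPM. Of the neighbours in this order, only piwi and nos had ranges that did not overlap.

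In the CrolKO libraries aub was first at 0.807 ± 0.176 TPM, beside zuc at 0.793 ± 0.0945 TPM, and it was above zuc in 1 of 3 libraries. vas followed at 0.513 ± 0.117, krimp at 0.480 ± 0.128, AGO3 at 0.307 ± 0.0702, bam at 0.270 ± 0.115, piwi at 0.263 ± 0.0551 and nos at 0.200 ± 0.0361 TPM. Here zuc and vas were the only neighbours whose ranges did not overlap. The TPM of vas, nos, piwi, AGO3 and zuc was lower in every CrolKO library than in every Wild-type library, beside 60.6% of all genes tested, which were lower in the same way. limma on log2(TPM + 0.1) gave -0.96 for piwi (adjusted p = 0.026), -0.95 for AGO3 (0.040) and -0.72 for zuc (0.041), all under the fold threshold. That test is against 0, while the median of all genes stood at -0.67 on that scale. Relative to this median, piwi was at -0.29, AGO3 at -0.28 and zuc at -0.05. With log2(TPM + 1), where these low values change least, piwi and AGO3 were 0.13 and 0.11 above the median of all genes.

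Ratios within a library do not depend on how libraries are scaled to each other. Relative to vas, aub stood at a log2 CPM ratio of -0.35 ± 0.24 under Wild-type and 0.98 ± 0.11 under CrolKO, a difference of 1.33, and the groups did not overlap. The ratio of bam to vas was -2.30 ± 0.60 under Wild-type and -1.25 ± 0.39 under CrolKO, a difference of 1.05 without overlap. The ratio to vas was higher without overlap for 22.8% of all genes and lower without overlap for 10.1%. For nos, piwi, AGO3, krimp and zuc the groups overlapped, with differences between -0.19 and 0.62.

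**Figure D3:**
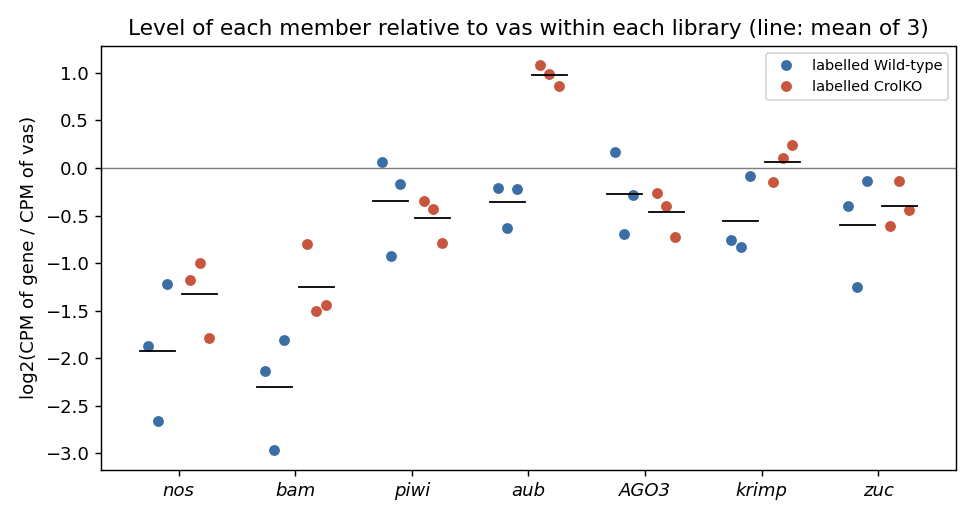
Log2 ratio of each gene's CPM to that of vas in the same library (vertical axis), for libraries labelled Wild-type (blue) and CrolKO (red), with the mean of 3 as a line. The aub ratios lie below 0 in the Wild-type libraries and between 0.86 and 1.08 in the CrolKO libraries, while those of piwi and AGO3 overlap.

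Among the Argonaute genes, the proportion of piwi to AGO3 was much the same in all libraries and that of aub to either was not. The ratio of piwi to AGO3 was 0.932, 0.854 and 1.09 in the Wild-type libraries and 0.941, 0.976 and 0.957 in the CrolKO libraries, a difference of 0.01 on the log2 scale. The ratio of aub to AGO3 was 0.770, 1.05 and 1.04 under Wild-type and 2.53, 2.61 and 3.00 under CrolKO. These groups did not overlap and differed by 1.52 on the log2 scale, beside 34.1% of all genes whose ratio to AGO3 was higher without overlap. The ratio of aub to piwi was 0.826, 1.23 and 0.960 under Wild-type and 2.69, 2.67 and 3.14 under CrolKO, a log2 difference of 1.51, beside 42.5% of all genes. These ratios were chosen after the values were seen and carry no test.

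Across the 6 libraries the log2 CPM of piwi and AGO3 went together with a Pearson r of 0.96, and that of bam and aub with an r of 0.81. The most negative of the 28 pairs was vas with nos, at -0.98. These are descriptions over 6 points that share the 2 groups and, for nos and bam, low counts. In a search of 10956 tested genes whose mean reached 1 CPM, the 3 most like vas over the libraries were CG10317 (r = 0.991), CG5762 (0.990) and CG43121 (0.988). Those most like piwi were CG12728 (0.994), Jra (0.980), which encodes the Jun transcription factor, and Rab9 (0.977).

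Transcript use was read from the abundance-weighted length that RSEM gives for each gene. The piwi row stood at 2969 bases in all Wild-type libraries and in CrolKO replicate 3, which is the length of the transcript piwi-RB, and at 3073 bases, that of piwi-RA, in CrolKO replicates 1 and 2. The groups shared a value (exact permutation test, two-sided, p = 0.40, smallest possible p 0.10). In nos only CrolKO replicate 1 departed from the 2292 bases of nos-RB, at 2316 bases. AGO3 ranged from 2728 to 2794 bases and aub stood at 2825 bases, the length of aub-RA, in every library. No member's lengths were apart between the groups, beside 23.7% of 6722 genes with more than 1 transcript. bam, krimp and zuc had 1 transcript each.

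The loci bear on what these rows count. In the Release 6 annotation vas, piwi, aub and zuc lie on arm 2L, krimp on 2R, AGO3 on 3L, and nos and bam on 3R. AGO3 spans 135048 bases and holds 106 annotated transposable element insertions, against 3 in piwi and 0 in the others. vas shares 563 exon bases with solo, a gene on the same strand whose product acts in chromatid cohesion, and the tables count a solo transcript within the vas row. With Release 6 transcript lengths set against the weighted lengths of that row, solo made up at most 4.20% to 9.17% of its abundance, by library. If the rest of the row were vas-RA alone, the share would be 0% to 5.19%. The reads were aligned to dm3, where lengths can differ, as for bam at 1894 against 1946 bases. These shares are therefore approximate.

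A gene on the opposite strand overlaps vas, nos, bam, piwi, aub and zuc, and whether the counting used strand is not given in the sources used here. For aub the partner is TTLL4A, with 79 shared exon bases, 391 to 1129 counts a library and a log2 fold change of 0.02. For piwi it is SCAR, a regulator of the Arp2/3 complex, with 191 shared bases, 540 to 1537 counts and -0.09. For zuc it is CG34163, with 67 shared bases, 186 to 375 counts and -0.02. nos shares 269 bases with CG11779, at 393 to 1103 counts and 0.02, and 104 with Nsun5, at 263 to 568 counts and 0.10. bam shares 224 bases with CG11854, which had 882 to 6194 counts a library and fell by 1.3 on the log2 scale (edgeR adjusted p = 0.024), the opposite direction to the fitted value of bam. vig, which encodes an RNA-binding component of the RNA interference complex, lies within vas without sharing exon bases. It fell by 1.16 on the log2 scale (edgeR adjusted p = 9.8e-04), from 73.8 to 77.1 CPM under Wild-type to 30.3 to 39.7 CPM under CrolKO.

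Among the other genes of the piRNA pathway, squ was called higher and tej lower. Of 27 listed, 26 were tested, 1 was called higher and 1 lower, beside 6.0% and 7.55% of all genes, and the median log2 fold change was -0.02, beside -0.05 over all genes. Their summed level overlapped, at 332 to 446 CPM under Wild-type and 275 to 339 CPM under CrolKO. The largest parts of this sum were tud, with means of 169 and 88.4 CPM, and mino, with 59.9 and 56.6 CPM. How much of it came from the gonad was not tested. squ, which encodes the nuage protein Squash that binds Aub, gave 4.44, 5.04 and 3.65 CPM under Wild-type and 10.9, 8.77 and 11.3 CPM under CrolKO. It rose by 1.23 ± 0.17 on the log2 scale (edgeR adjusted p = 0.0021), and not on TPM, where limma on log2(TPM + 0.1) gave 0.57, or 1.25 above the median of all genes, with an adjusted p of 0.12.

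tej encodes Tejas, a Tudor domain protein that brings Vas and Spindle-E to the nuage. It gave 2.86, 2.35 and 3.23 CPM under Wild-type and 0.514, 0.574 and 0.644 CPM under CrolKO, from 98 to 117 counts against 13 to 22. The groups lay far apart. The log2 fold change was -2.29 ± 0.24 (edgeR adjusted p = 7.1e-04), and it lay between -2.46 and -1.12 under all the alternatives run.

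An adjusted p under 0.05 without the fold threshold was reached by 2 of the 26 genes in the higher direction and 3 in the lower, beside 15.3% and 17.8% of all genes. Those not yet named were mael, which encodes the HMG-box protein Maelstrom, at 0.83, tud, the founding Tudor domain gene, at -0.93, and Nxf3, which exports piRNA precursors from the nucleus, at -0.71. After removal of the length trend tud stood at -0.04 (edgeR adjusted p = 0.85).

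Of 18 other germ cell genes, 14 were tested, and osk, pgc, otu and dhd did not reach the filter. By edgeR 0 were called higher and 2 lower, as by DESeq2, beside 6.0% and 7.55% of all genes, and the median log2 fold change was -0.39, beside -0.05 over all genes. The summed level of the 18 genes was lower without overlap, at 156 to 248 CPM under Wild-type and 114 to 141 CPM under CrolKO. Of all genes tested, 26.5% were lower without overlap in their own CPM. The sum leans on its most abundant genes, and how much of their RNA came from germ cells was not tested. For scale, vas, the germ cell marker, had a mean of 2.06 CPM under Wild-type. The mean of pum, the largest under Wild-type, went from 51.9 to 26.6 CPM, while that of exu was 29.3 and 29.5 CPM. Without the fold threshold, 1 gene in the higher direction and 5 in the lower had an edgeR adjusted p under 0.05. Of all genes 15.3% and 17.8% did so. The higher 1 was Phf7, a chromatin reader of the male germline, at 0.61, which alone had an unadjusted p under 0.05 in that direction. The lower 5 were pum at -0.97, tut at -0.72, bru1 at -0.63, and mei-P26 and ovo, which were called. mei-P26, a TRIM-NHL protein that restrains germ cell growth, fell by 1.54 on the log2 scale from 29.8 ± 10.1 to 10.3 ± 1.74 CPM (edgeR adjusted p = 0.0034). ovo, the zinc finger gene of the female germline that also acts in the epidermis, fell by 1.31, from 17.8 ± 4.44 to 7.19 ± 1.3 CPM (edgeR adjusted p = 0.0034). Both calls ended with the length trend removed, at -0.53 for mei-P26 and -0.56 for ovo. Wild-type replicate 2 was the highest library for 10 of the 14 genes, a larger share than the 3921 of all 12434, so that this list leans on that library.

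**Figure D4:**
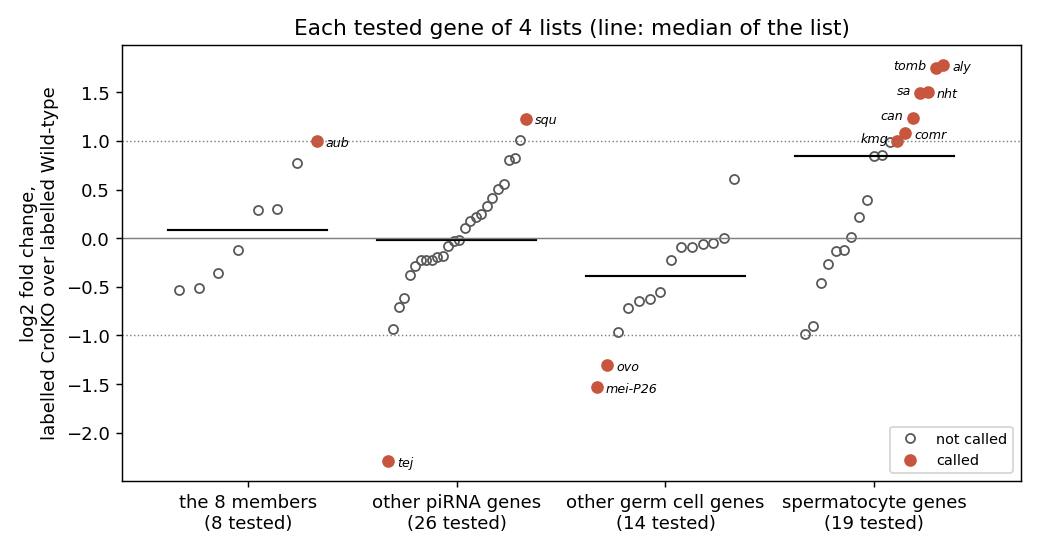
Log2 fold change of each tested gene, CrolKO over Wild-type as labelled (vertical axis), in the 8 members and 3 lists, sorted within each list, with the list's median as a line. Filled points were called, and the dotted lines mark 1 and -1. The called genes are aub among the members, squ and tej among 26 other piRNA genes, ovo and mei-P26 among 14 other germ cell genes and 7 of 19 spermatocyte genes.

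Of 19 spermatocyte genes tested, 7 were called higher, 0 lower and 12 not called by edgeR, with 8 higher and 0 lower by DESeq2, beside 6.0% and 7.55% of all genes, and their median was 0.84, with 13 fitted values above 0 and 6 below. The 4 with the largest fold changes were aly, at 1.78, and tomb, at 1.75, of the testis-specific meiotic arrest complex, and nht and sa, both at 1.5, of the testis-specific TAFs. Among those that did not pass were Mst87F at 0.01, betaTub85D at -0.46 and dj at -0.91. In the lower direction 1 gene had an unadjusted p under 0.05 by edgeR, bol, the translational regulator Boule, at -0.99. Calls in the higher direction numbered 0 with limma on log2(TPM + 1) and 2 with log2(TPM + 0.1). The summed level of the 19 genes overlapped, at 73.1 to 146 CPM under Wild-type and 102 to 127 CPM under CrolKO, and was highest in Wild-type replicate 2.

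roX1, the noncoding RNA of the male dosage compensation complex, was at 78.3, 99.7 and 99.7 CPM under Wild-type and 243, 211 and 197 CPM under CrolKO, a rise of 1.23 ± 0.15 on the log2 scale (edgeR adjusted p = 0.0011). roX2 was at 0.62 and the RNA of msl-2, whose protein is made in males, at 0.14. Of 6 genes of the somatic gonad 5 were tested. Among them upd1, the JAK/STAT ligand of the testis hub, had only 8 to 25 counts a library. It rose by 1.15 in edgeR and was not called by DESeq2, and dsx, the sex determination factor, fell by 1.15. zfh1, a transcription factor of the somatic stem cells of the testis and of other tissues, was at -0.97 (edgeR adjusted p = 0.020, under the fold threshold) with the groups apart, and eya, which acts in gonad and eye, was at -0.31 (adjusted p = 0.26). tj, the defining gene of the gonad's somatic cells, had 12 to 30 counts and stood at -0.21. The summed level of the 6 genes was lower without overlap, at 27.7 to 42.8 CPM under Wild-type and 17.8 to 19.7 CPM under CrolKO. Of all genes tested, 26.5% were lower without overlap in their own CPM. The largest parts of the sum were zfh1, with means of 17.1 and 8.77 CPM, and dsx, with 9.46 and 4.27 CPM. Means of tj were 0.595 and 0.532 CPM, and those of Six4, the gene not tested, 0.204 and 0.271 CPM. The part of these cell type and sex markers in the differences of aub and bam was not tested.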

How the data were processed

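RNA-seq tables of 6 libraries were analysed, 3 labelled Wild-type and 3 labelled CrolKO. Per the labels and the study's methods, polyA RNA of 40 larvae a library was prepared with a directional kit. By the submitters' processing notes the reads were trimmed with Trim Galore 0.6.1, aligned to dm3 with STAR 2.7.3a and passed to RSEM 1.3.2. The authors' expected counts per gene, deposited unscaled, were rounded. The TPM and FPKM in the same deposited tables were computed by the authors with RSEM, TPM per length and library and FPKM per length and depth. Weighted lengths were used as deposited. Whether the counting used strand is not given in the sources used here.

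Groups came from the genotype labels, which the table names contradict. No library was left out of the main fit. A gene entered the test if 3 or more libraries had 10 or more counts, and edgeR 4.0.16 was used in R 4.3.3 (TMM, quasi-likelihood test, genotype only, Benjamini-Hochberg over all genes tested). A gene was called at an adjusted p below 0.05 if its log2 fold change also exceeded 1 in size. The SE was obtained from the fold change and the F statistic of the test. CPM used TMM-scaled library sizes. Counting intervals are exact 95% Poisson intervals. The fit was tested on simulated data.

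The study's methods give 3 biological repeats, and replicate numbers are not stated to pair libraries. The members and gene lists were chosen with earlier results of these data known, so that counts over them are descriptions. All 8 members were named, with the called genes of the other piRNA and germ cell lists, up to 4 of each remaining list by size of change, the 2 label checks and the 3 genes most like vas and piwi. Genes named beyond this were chosen after their values were seen. Current symbols were matched through RefSeq and Release 6 annotation tables, from which overlaps, arms and transcript lengths were taken. Alternatives were DESeq2 1.42.0, its size factors in edgeR, upper-quartile scaling, limma 3.58.1 on TPM with pseudocounts of 1 and 0.1, no filter, a filter of 10 counts in all libraries, the replicate block, leaving out each library, other thresholds, and removal of each library's lowess trend (span 0.3) over log2 transcript length.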

Additional observations from a re-analysis of the deposited data

How the results depend on the processing

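The count of members called, 1, became 0 with limma on log2(TPM + 1) or log2(TPM + 0.1), with no low-count filter and with at least 10 counts in every library, and ran from 0 to 1 as libraries were left out. It was 1 under the other settings run, DESeq2 included. For aub these gave 0.13 (adjusted p = 0.41) and 0.28 (0.44) by limma, and 1.0 and 0.99 under the filters, the fold threshold being missed by less than 0.02. With the TPM settings the median of all genes stood at -0.48 and -0.67, and nos turned to -0.075 and -0.28 and krimp to -0.13 and -0.31. Less that median, nos and krimp were above 0 in both. Over all genes, 1685 calls became 3386 with log2(TPM + 0.1), of which 247 were higher and 3139 lower, and 4112 with no fold threshold. Upper-quartile scaling gave 912 higher and 752 lower, against 746 and 939, and the counts ran from 1291 to 1978 as libraries were left out. The other piRNA and germ cell genes had 4 calls, 9 with log2(TPM + 0.1), 11 with no fold threshold and 4 to 6 as libraries were left out. The 7 calls among spermatocyte genes became 1 with log2(TPM + 1), in the lower direction, 3 with log2(TPM + 0.1), of which 2 were higher, and 5 with the block. Members whose ratio to vas was apart numbered 2, and 2 to 4 as libraries were left out. Those whose transcript length was apart numbered 0, and 0 to 1. Members whose TPM was apart numbered 5, and 5 to 6, or 4 by FPKM. The cause of these shifts was not tested.

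Same-numbered libraries had a mean correlation of deviations of -0.11, so the numbers were not taken as pairs. With the replicate number as a block, 1491 genes and 1 member were called, and aub was at 1.0 (edgeR adjusted p = 0.043). At 11 to 133 counts a library, the 95% intervals of nos, bam, piwi and AGO3 take in both 0 and a difference of 1 in size on the log2 scale, so that depth and 3 libraries a group did not tell these apart.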

Other observations

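The Stellate genes, a tandem family on the X chromosome that the piRNA pathway silences in the male germline through Aub and AGO3, were looked at beside the members. Of 13 copies listed, 2 were tested and 3 had 0 counts in all libraries. Their summed counts were 21, 259 and 31 under the Wild-type label and 91, 31 and 8 under the CrolKO label. The groups overlapped, and 1 library, Wild-type replicate 2, held more than the rest together. The copies are nearly identical, so that the split of reads among them is uncertain. Neither tested copy passed, with log2 fold changes of -1.12 and -1.19, and Wild-type replicate 2 was the highest library for both.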
